A study of Mus musculus with 116 samples.

Results

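The 9 transcription factor genes described here are Cdx2, Gata2, Gata3, Tfap2a, Tfap2c, Eomes, Elf5, Id2 and Hand1, which are known as regulators or early markers of the trophectoderm in the mouse embryo. They were chosen by symbol, and each of the 9 was found among the 24028 gene symbols shared by the 4 deposited expression tables. The rule uses symbols and no expression value, but the list was drawn up with earlier results of these data known. The study followed RNA polymerase II on chromatin from the oocyte to the blastocyst, and 7 of its 116 samples are the RNA-seq libraries used here. The other 109 samples were not analysed here.

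All oocytes and embryos were wild type. Females were C57BL/6N animals, 8 weeks old and superovulated, and embryos came from matings with PWK males. Late 2-cell mTBE embryos were taken as zygotes 23 h after hCG, kept for 14 h in 60 uM DRB, moved out of the drug on reaching the 2-cell stage and cultured for another 12 h. DRB is an inhibitor of transcription elongation, and the deposited column of this library carries its name, whereas the labels call the library mTBE without expanding the letters. Late 2-cell control embryos went through the same steps in 0.1% DMSO. The other stages were metaphase II (MII) oocytes at 13 h after hCG, late zygotes at the PN5 stage at 30 h, early 2-cell embryos at 36 h and inner cell mass (ICM) preparations at 98 h.

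Each of the 5 libraries from MII to the late 2-cell stage was made from total RNA of about 100 pooled oocytes or embryos after removal of ribosomal RNA, and each stage or treatment has 1 such library. The ICM has 2 libraries, made from polyadenylated RNA with Smart-seq2. How the ICM was separated from the trophectoderm is not given in the sources used here. Levels are FPKM, fragments per kilobase of transcript per 1000000 mapped fragments, a unit that corrects for transcript length. With 1 library per group there is no test between groups and no p-value. A gene was called higher or lower when log2(FPKM + 1) differed by 1 or more, among genes at 1 FPKM or more on at least 1 side, and these calls compare libraries, not conditions. The only replicate spread is that of the ICM pair. The late 2-cell mTBE, late 2-cell control and PN5 values come from a single table, whereas MII, early 2-cell and ICM values were normalized in tables of their own. In bulk samples, fewer cells of a type and less RNA per cell cannot be told apart.

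The trophectoderm is the outer epithelium of the blastocyst and gives rise to the trophoblast of the placenta. Its fate is set when the coactivator Yap1 enters the nuclei of outer cells and, with Tead4, turns on Cdx2, while Gata3 and the AP-2 factors Tfap2a and Tfap2c act beside it. Cdx2 and Eomes then sustain trophoblast stem cells, Elf5 reinforces that state, and Hand1 drives differentiation into trophoblast giant cells. Gata2 acts with Gata3 on trophoblast genes, and Id2, which blocks basic helix-loop-helix factors, marks outer cells early.

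RefSeq promoter windows, 250 bases before to 50 bases after an annotated start on GRCm38.p6, were at hand for 7 of the 9 genes, 10 windows in all, and Tfap2c and Hand1 are only named. The 6 windows below belong to the genes of the 7 that were called higher in late 2-cell control embryos against PN5 zygotes or in the ICM against late 2-cell control embryos, as given further on, and each reads 5′ to 3′ on the gene's own strand. Capitals mark matches, on either strand, to CCAAT (the CCAAT box), GCCNNNGGC (an AP-2 type site) and GGAATG (a TEAD type site).
Gata3 (chr2:9878551-9878850, minus strand): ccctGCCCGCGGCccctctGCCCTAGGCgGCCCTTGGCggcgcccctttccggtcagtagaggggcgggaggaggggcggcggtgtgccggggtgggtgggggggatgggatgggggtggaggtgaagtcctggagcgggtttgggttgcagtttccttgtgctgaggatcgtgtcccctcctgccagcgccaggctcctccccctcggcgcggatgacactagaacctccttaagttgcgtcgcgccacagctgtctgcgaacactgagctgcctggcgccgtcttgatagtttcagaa
Gata2 (chr6:88198414-88198713, plus strand): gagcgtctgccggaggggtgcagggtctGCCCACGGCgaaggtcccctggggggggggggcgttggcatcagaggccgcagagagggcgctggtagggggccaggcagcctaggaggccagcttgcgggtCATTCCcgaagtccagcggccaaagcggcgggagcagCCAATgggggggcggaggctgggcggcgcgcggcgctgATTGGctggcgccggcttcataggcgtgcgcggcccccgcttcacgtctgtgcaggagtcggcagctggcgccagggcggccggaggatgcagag
Cdx2 (chr5:147307200-147307499, minus strand): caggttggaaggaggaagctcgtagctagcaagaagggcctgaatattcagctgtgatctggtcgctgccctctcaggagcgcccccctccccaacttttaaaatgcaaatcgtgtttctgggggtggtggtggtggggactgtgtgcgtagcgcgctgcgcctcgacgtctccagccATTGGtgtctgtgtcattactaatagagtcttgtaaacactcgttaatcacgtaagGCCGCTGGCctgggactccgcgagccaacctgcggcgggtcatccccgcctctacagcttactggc
Eomes (chr9:118477939-118478238, plus strand): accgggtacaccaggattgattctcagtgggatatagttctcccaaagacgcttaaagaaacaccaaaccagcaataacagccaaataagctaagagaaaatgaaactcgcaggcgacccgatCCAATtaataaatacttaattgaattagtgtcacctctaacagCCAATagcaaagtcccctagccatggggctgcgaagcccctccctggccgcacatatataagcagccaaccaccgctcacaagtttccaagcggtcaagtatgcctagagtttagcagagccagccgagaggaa
Id2 (chr12:25096043-25096342, minus strand): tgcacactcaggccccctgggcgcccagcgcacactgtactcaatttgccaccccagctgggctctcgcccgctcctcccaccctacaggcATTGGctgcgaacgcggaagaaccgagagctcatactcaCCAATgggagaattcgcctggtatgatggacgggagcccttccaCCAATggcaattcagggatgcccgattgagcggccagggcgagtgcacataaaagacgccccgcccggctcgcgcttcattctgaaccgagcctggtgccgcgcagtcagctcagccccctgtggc
Elf5 (chr2:103411848-103412147, plus strand): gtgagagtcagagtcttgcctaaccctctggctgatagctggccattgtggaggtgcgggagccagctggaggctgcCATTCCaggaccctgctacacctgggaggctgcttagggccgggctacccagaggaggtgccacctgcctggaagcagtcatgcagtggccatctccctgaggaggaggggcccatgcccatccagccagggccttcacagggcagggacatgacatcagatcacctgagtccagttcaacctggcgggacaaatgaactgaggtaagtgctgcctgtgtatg
The 3 matches in the Gata3 window are all of the AP-2 type, and they lie close together at its upstream end. The Cdx2 window holds 1 AP-2 type match and 1 CCAAT box. CCAAT boxes are the only matches for Eomes, with 2, and for Id2, with 3. The Gata2 window shown, at the downstream of its 2 starts, holds 2 CCAAT boxes, 1 TEAD type match and 1 AP-2 type match. The Elf5 window shown, at the upstream of its 2 starts, holds 1 TEAD type match. No capitalised match overlaps another. Of all 32851 promoter windows of the same length, 37.4% hold CCAAT, 16.6% hold GCCNNNGGC and 14.7% hold GGAATG, so these letters are common. The search also took in the TATA box, spelled TATAAA and held by 13.6% of all windows, the GATA type site AGATAA, held by 11.2%, the E-box CACGTG, held by 7.15%, and the CDX type site TTTATGG, held by 2.75%. None of these was in the 10 windows. The other Gata2 window, the other Elf5 window and both Tfap2a windows held no match at all. The Gata2 windows have 32 and 29 CpG dinucleotides, Gata3 has 22, Id2 has 21 and Cdx2 has 18, against a median of 7 over all windows. Nearer that median, the Tfap2a windows have 11 and 15 CpGs and Eomes has 10, at the 56.5 percentile. Elf5 has 3 CpGs in the window shown, at the 23.3 percentile, and 10 in the other.

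Tfap2c was at 18.0 FPKM or more in every library, Gata3 was at 3.67 FPKM in MII oocytes and 4.93 FPKM in PN5 zygotes, and the other 7 genes stayed below 2 FPKM up to the early 2-cell stage. At 1 FPKM or more there were 2 of the 9 genes in MII oocytes, 4 in PN5 zygotes, 2 in early 2-cell embryos, 8 in mTBE and 8 in control late 2-cell embryos, and 9 in each ICM library. Of the 24028 to 24083 symbols of each library, 10130 reached it in MII oocytes, 9997 in PN5 zygotes and 9511 in early 2-cell embryos. The counts were 13022 in mTBE and 12472 in control late 2-cell embryos, and 9638 and 9396 in the ICM libraries. Their summed level was 23.1 FPKM in MII oocytes, 40.7 FPKM in PN5 zygotes, 28.2 FPKM in early 2-cell embryos, 119.5 FPKM in mTBE embryos, 76.6 FPKM in control embryos, and 849 and 685 FPKM in the ICM libraries.

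**Figure D1:**
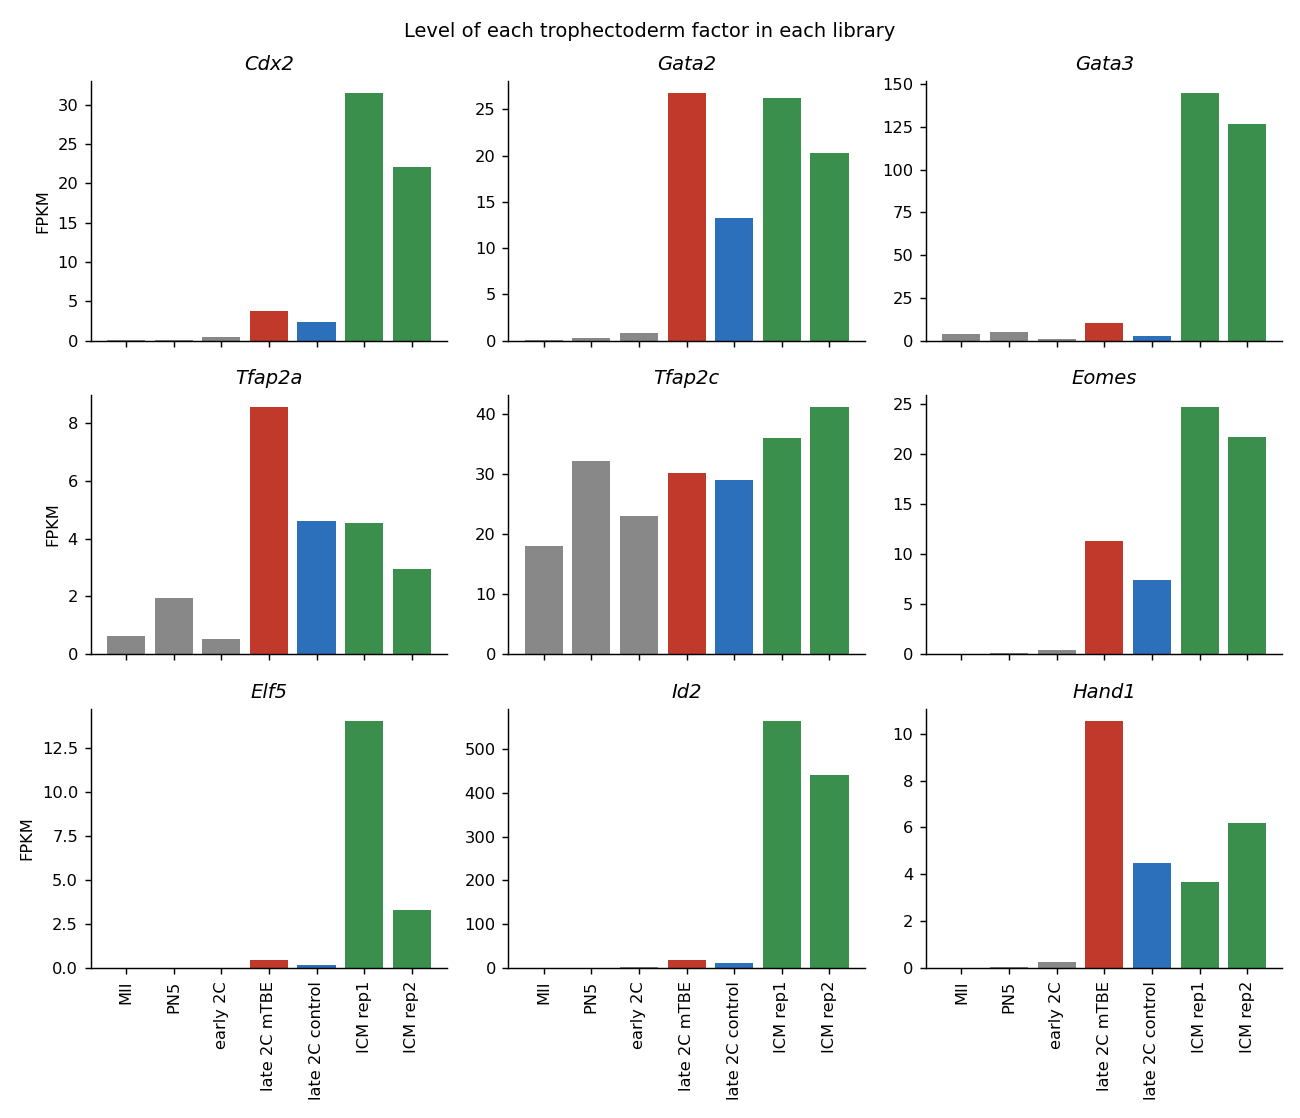
Level of each of the 9 genes in FPKM (linear axes from 0, a scale of its own in each panel) in MII, PN5 and early 2-cell (2C) libraries, late 2-cell mTBE and control libraries, and the 2 ICM libraries, with 1 bar per library and no error bars because each bar is 1 library. Tfap2c stands between 18.0 and 41.1 FPKM in every library, whereas Cdx2, Gata2, Eomes, Id2 and Hand1 are under 2 FPKM up to the early 2-cell stage.

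Tfap2c, the AP-2 factor that is stored in the mouse oocyte, held 18.0 FPKM in MII oocytes, 32.2 FPKM in PN5 zygotes, 23.0 FPKM in early 2-cell embryos, 30.1 FPKM in mTBE embryos, 29.0 FPKM in control embryos, and 36.1 and 41.1 FPKM in the ICM libraries. No comparison called it higher or lower. It made up 78.0% of the summed level of the 9 genes in MII oocytes, 79.1% in PN5 zygotes and 81.5% in early 2-cell embryos, but 25.2% in mTBE embryos, 37.9% in control embryos, and 4.25% and 6.01% in the ICM libraries. The smaller shares stand beside larger sums, since its own FPKM stayed in the range above.

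**Figure D2:**
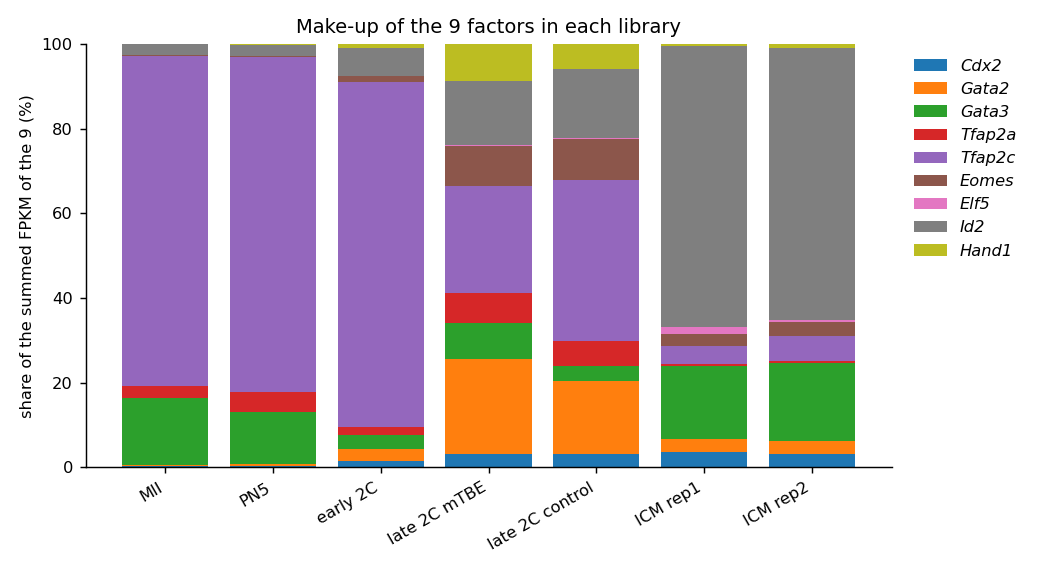
Share of the summed FPKM of the 9 genes, in percent, taken by each gene in each library (stacked bars, 1 library each). Tfap2c takes 78.0% to 81.5% in the MII, PN5 and early 2-cell libraries, and Id2 takes 66.4% and 64.3% in the ICM libraries.

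Tfap2a, the AP-2 paralog of Tfap2c, had 0.636 FPKM in MII oocytes, 1.95 FPKM in PN5 zygotes, 0.535 FPKM in early 2-cell embryos, 8.54 FPKM in mTBE embryos, 4.60 FPKM in control embryos, and 4.52 and 2.96 FPKM in the ICM libraries. It was the only gene of the 9 besides Hand1 and Gata2 with its highest FPKM in the mTBE library. The ratio of Tfap2c to Tfap2a was 28.4 in MII oocytes, 16.5 in PN5 zygotes and 43.0 in early 2-cell embryos, then 3.53 in mTBE embryos, 6.32 in control embryos, and 7.98 and 13.9 in the ICM libraries.

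Gata3 was detected in the oocyte and zygote, at 3.67 FPKM in MII oocytes and 4.93 FPKM in PN5 zygotes. It had 0.906 FPKM in early 2-cell embryos, 10.2 FPKM in mTBE embryos, 2.60 FPKM in control embryos, and 145 and 127 FPKM in the ICM libraries. Its lowest level was the early 2-cell one. Gata2 ran differently, with 0.0801 FPKM in MII oocytes, 0.249 FPKM in PN5 zygotes, 0.834 FPKM in early 2-cell embryos, 26.7 FPKM in mTBE embryos, 13.3 FPKM in control embryos, and 26.2 and 20.2 FPKM in the ICM libraries. Gata3 exceeded Gata2 45.8-fold in MII oocytes and 19.8-fold in PN5 zygotes, and the ratio was 1.09 in early 2-cell embryos. Gata2 was the higher of the pair at the late 2-cell stage, where the ratio of Gata3 to Gata2 was 0.380 in mTBE embryos and 0.196 in control embryos, and Gata3 was again higher in the ICM libraries, by 5.52-fold and 6.26-fold.

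Cdx2, the homeobox factor required for the trophectoderm, had 0.0573 FPKM in MII oocytes, 0.0955 FPKM in PN5 zygotes, 0.407 FPKM in early 2-cell embryos, 3.76 FPKM in mTBE embryos, 2.41 FPKM in control embryos, and 31.4 and 22.1 FPKM in the ICM libraries. Eomes, a T-box factor, had 0.0171 FPKM in MII oocytes, 0.118 FPKM in PN5 zygotes, 0.419 FPKM in early 2-cell embryos, 11.4 FPKM in mTBE embryos, 7.44 FPKM in control embryos, and 24.7 and 21.7 FPKM in the ICM libraries. Eomes stood above Cdx2 by 3.03-fold in mTBE and 3.09-fold in control embryos, and below it in the ICM libraries, where the ratio was 0.786 and 0.983. The excess of Eomes over Cdx2 was thus of nearly the same size in both late 2-cell libraries.

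Id2 had 0.595 FPKM in MII oocytes, 1.09 FPKM in PN5 zygotes, 1.86 FPKM in early 2-cell embryos, 17.9 FPKM in mTBE embryos, 12.5 FPKM in control embryos, and 563 and 440 FPKM in the ICM libraries. It was the highest of the 9 genes in the ICM, at the 99.6 and 99.3 percentile of all symbols. Hand1, a basic helix-loop-helix factor, was listed at 0 in MII oocytes and had 0.0599 FPKM in PN5 zygotes, 0.261 FPKM in early 2-cell embryos, 10.5 FPKM in mTBE embryos, 4.49 FPKM in control embryos, and 3.66 and 6.19 FPKM in the ICM libraries. Its mTBE level was the highest of the 7. Elf5, an ETS factor, stayed under 0.5 FPKM through the late 2-cell stage, with 0.0240 FPKM in MII oocytes, a listed 0 in PN5 zygotes and in early 2-cell embryos, 0.460 FPKM in mTBE embryos and 0.165 FPKM in control embryos. It reached 14.0 FPKM in ICM replicate 1 and 3.28 FPKM in ICM replicate 2.

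The first question was when these genes come on around zygotic genome activation, the start of transcription from the embryo's own genome. Onset was set at the first stage with at least 1 FPKM and with FPKM + 1 at least 4 times that of MII oocytes. By that rule 4 genes came on at the late 2-cell stage when the control library was used, namely Gata2, Eomes, Id2 and Hand1, and none came on at PN5 or in early 2-cell embryos. With the mTBE library in its place 6 genes did, Cdx2 and Tfap2a being added. The Cdx2 control level of 2.41 FPKM and the Tfap2a control level of 4.60 FPKM missed the rule, which adds 1 FPKM to each side. With 2 in place of 4 these 6 genes also came on at the late 2-cell stage in the control library, and Gata3, Tfap2c and Elf5 did not come on by either rule. The MII library comes from a table normalized apart from that of the late 2-cell libraries. Each library was also rescaled to a sum of 1000000 without small RNA and histone symbols. By the 4-fold rule, 5 genes then came on at the late 2-cell stage in the control library. Gata2 was not among these 5, as it met the rule already in early 2-cell embryos under that rescaling. The share of all genes that met the onset rule was not taken. By the 2-fold rule below, 30.5% of 13022 measured genes were higher in control embryos than in PN5 zygotes.

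In early 2-cell embryos against MII oocytes, 3 of the 9 genes could be compared, since the others were under 1 FPKM in both libraries. Gata3 was lower, by -1.29 on the log2(FPKM + 1) scale, while Tfap2c differed by 0.33 and Id2 by 0.84, short of a call. No member was higher (0 of 3) and 1 of 3 was lower, where 4.02% of 10675 genes were higher and 28.8% lower. These 2 libraries come from separately normalized tables, and the median log2 ratio was -0.57 over genes at 5 FPKM or more in both. With that median set to 0 the shares over all genes were 9.58% higher and 14.3% lower, Gata3 differed by -0.99 and was no longer called, and Id2, at 1.24, was among 2 members called higher. With each library rescaled to a sum of 1000000, 14.7% of 13937 genes were higher and 18.3% lower, and 5 of 8 members were higher and 1 lower. The pseudocount and filter stayed at 1 there, so more genes and members were measured.

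In late 2-cell control embryos against PN5 zygotes, values of 1 table, 5 of the 8 measured members were higher, against 30.5% of 13022 genes. They were Gata2 by 3.52, Eomes by 2.92, Id2 by 2.70, Hand1 by 2.37 and Cdx2 by 1.64 on the log2(FPKM + 1) scale. None of the 8 was lower, against 17.0% of all genes, although Gata3 differed by -0.72 and Tfap2c by -0.14. Tfap2a, at 0.92, was just short of a call, and was called under 4 of the other scalings and pseudocounts, where its difference was between 1.03 and 1.21. The median difference was 2.00 over the 8 members and 0.28 over all genes. Low genes were called higher more often: of 4000 genes with a mean of 1 to 5 FPKM over the pair, the class of Cdx2, Gata3, Tfap2a, Eomes and Hand1, 42.3% were higher and 67.4% were above 0. Among 4220 genes at 5 to 20 FPKM, the class of Gata2 and Id2, 28.9% were higher. Control embryos differed from PN5 zygotes in stage and also in the time spent in culture with DMSO, and these cannot be told apart.

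In mTBE embryos against the same PN5 library, 6 of the 8 measured members were higher and 0 lower, against 29.4% and 17.7% of 13489 genes. The differences were 4.47 for Gata2, 3.47 for Eomes, 3.44 for Hand1, 3.17 for Id2, 2.12 for Cdx2 and 1.69 for Tfap2a. Gata3 stood at 0.91 and Tfap2c at -0.09. Gata3 was called higher with a pseudocount of 0.1, at 1.03, with the median ratio set to 0, at 1.08, and with the rescaling that left out small RNA and histone symbols, at 1.09. Of 4095 genes with a mean of 5 to 20 FPKM over the pair, the class of all 8 but Cdx2 and Tfap2c, 20.0% were higher. Among 4606 genes at 1 to 5 FPKM, the class of Cdx2, 43.0% were higher and 70.6% were above 0. Both comparisons share the PN5 library, so their values are given only side by side. The 5 genes called in control embryos were all among the 6 called in mTBE embryos. The same overlap was not counted over all genes, so it is no result about the members.

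The direct comparison asked how the genes stood 12 h after release from DRB, in mTBE against control embryos. All 8 measured members had a higher FPKM in mTBE embryos, as did 46.6% of all measured genes, and 2 of the 8, Gata3 and Hand1, passed the size rule. That is 2 of 8 higher and 0 of 8 lower, against 5.57% higher and 9.99% lower among 13726 genes. The median difference was 0.66 over the members and -0.05 over all genes on the log2(FPKM + 1) scale.

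Gata3 showed the largest difference, 10.2 FPKM in mTBE embryos against 2.60 FPKM in control embryos, which is 1.63 on the log2 scale. Hand1 had 10.5 FPKM in mTBE embryos against 4.49 FPKM in control embryos, a difference of 1.07. Gata2 came next with 26.7 FPKM in mTBE embryos against 13.3 FPKM in control embryos, a difference of 0.96 that lies just under the rule. It was called with a pseudocount of 0.1, at 1.00, and with the median ratio set to 0, at 1.05. The smaller differences were 0.77 for Tfap2a, 0.55 for Eomes, 0.48 for Cdx2, 0.48 for Id2 and 0.05 for Tfap2c. As plain FPKM ratios the 8 genes ran between 1.04 for Tfap2c and 3.91 for Gata3. Elf5, with 0.460 FPKM in mTBE embryos and 0.165 FPKM in control embryos, was too low to be compared.

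Genes of like abundance were read beside them. Among the 4555 genes with a mean of 5 to 20 FPKM over the pair, the class of Gata3, Tfap2a, Eomes, Id2 and Hand1, 35.7% were above 0, 2.39% were called higher and the median difference was -0.22. Among 4916 genes at 1 to 5 FPKM, the class of Cdx2, 52.0% were above 0, and among 2855 genes at 20 to 100 FPKM, the class of Gata2 and Tfap2c, 42.7% were. The split over all genes moved with the settings. After each library was rescaled to a sum of 1000000 without small RNA and histone symbols, 12.5% of genes were higher and 12.7% lower. The members called were again 2 higher and 0 lower. That rescaling raised the values while the pseudocount and filter stayed at 1, so 16352 genes were measured in place of 13726. With only the pseudocount changed, to 0.1 FPKM, 10.4% were higher and 14.1% lower, and 3 members were higher and 0 lower. Each side is 1 library with no replicate, and at most 7 of 580 genes under 0.3 FPKM shared a ratio between the libraries, so their depths could not be read from the values and are unknown.

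**Figure D3:**
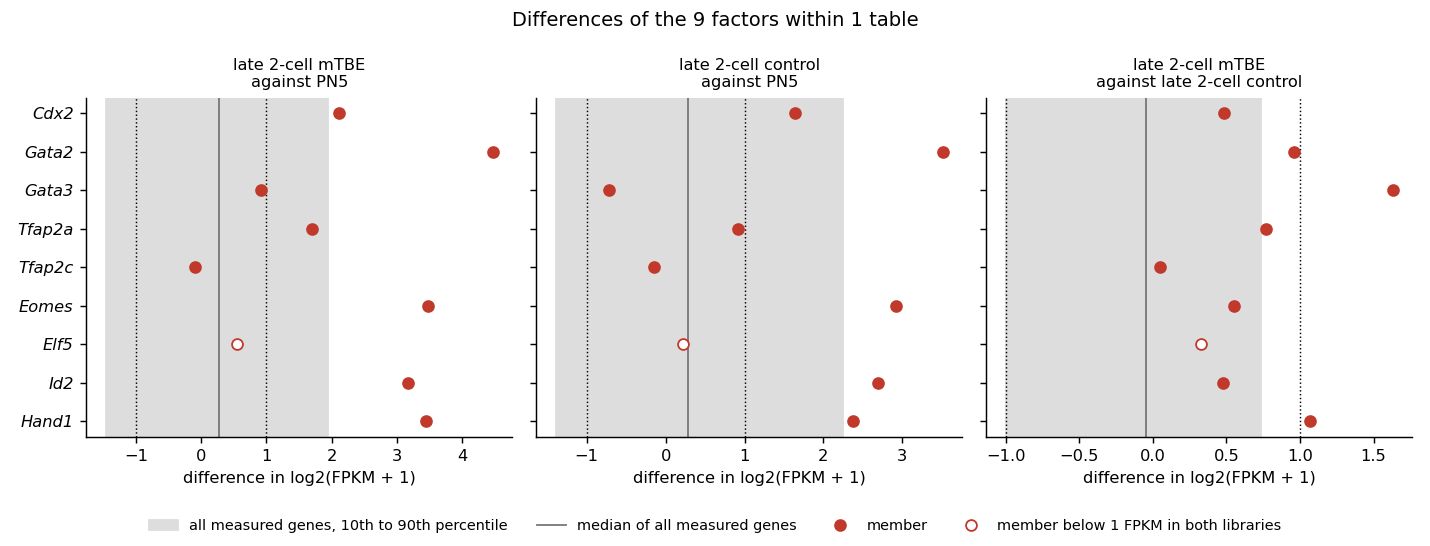
Difference in log2(FPKM + 1) of each of the 9 genes (circles, open where the gene is under 1 FPKM in both libraries) for mTBE against PN5, control against PN5, and mTBE against control, with the 10th to 90th percentile (grey band) and median (grey line) of all measured genes and the size rule of 1 (dotted lines). All 8 measured genes lie above 0 in mTBE against control, where 46.6% of all measured genes do, and Gata3, at 1.63, and Hand1, at 1.07, lie past the rule.

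Close paralogs of the 9 genes were not all higher in mTBE embryos. Of 3 measured Gata paralogs, 0 were higher and 1 lower. That was Gata1, the erythroid factor, with 3.39 FPKM in mTBE embryos and 15.6 FPKM in control embryos, whereas Gata4 had 30.2 FPKM in mTBE and 46.1 FPKM in control embryos and Gata6 had 4.59 FPKM in mTBE and 2.54 FPKM in control embryos. The 3 Id paralogs had a median difference of -0.63 with none called, and Id1 had 22.0 FPKM in mTBE against 39.7 FPKM in control embryos, the opposite direction to Id2.

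Of 9 measured T-box genes besides Eomes, 4 were higher and 0 lower. The highest of these 4 in mTBE embryos were Tbx1, with 6.18 FPKM in mTBE and 2.47 FPKM in control embryos, and Tbx21, with 3.97 FPKM in mTBE and 1.47 FPKM in control embryos. Tbx3, also a regulator of pluripotent cells, had 28.5 FPKM in mTBE and 49.3 FPKM in control embryos, short of a call. Of 5 Elf paralogs and 2 measured Tfap2 paralogs, 0 were called in either direction, and Hand2 had 1.67 FPKM in mTBE and 0.923 FPKM in control embryos. The AP-2 paralog Tfap2e, at 240 FPKM in PN5 zygotes, had 80.2 FPKM in mTBE and 71.4 FPKM in control embryos. Neither Cdx1 nor Cdx4 reached 1 FPKM in either late 2-cell library.

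Other genes of the pathway were read in the same comparison. Of 20 measured genes of the Hippo and Notch pathways upstream of Cdx2, 0 were called, with a median of -0.17. Yap1 had 812 FPKM in mTBE and 663 FPKM in control embryos, and Tead4 had 2.17 FPKM in mTBE and 4.13 FPKM in control embryos. Of 18 other trophoblast regulators, 0 were higher and 2 lower, with a median of 0.04. Esx1, a placental homeobox gene, had 46.8 FPKM in mTBE and 23.5 FPKM in control embryos, and Sp6 had 23.0 FPKM in mTBE and 47.9 FPKM in control embryos.

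Of 25 trophectoderm effectors, the keratins, junction proteins and transporters of the epithelium, 0 were higher and 2 lower, with a median of -0.10. Those 2 were the claudin gene Cldn7, with 2.84 FPKM in mTBE and 8.75 FPKM in control embryos, and Lgals3, with 3.26 FPKM in mTBE and 11.2 FPKM in control embryos. None of 3 E proteins, the dimerization partners of Hand1 that Id2 blocks, was called, and Tcf3 had 18.4 FPKM in mTBE and 32.1 FPKM in control embryos.

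Markers of other cells were read beside these values. Of 16 ICM markers, 0 were higher and 1 lower in mTBE embryos, with a median of -0.11 and a summed level of 386 FPKM in mTBE and 434 FPKM in control embryos. Of 12 measured primitive endoderm markers, 2 were higher and 0 lower, with a median of 0.47 and sums of 144 FPKM in mTBE and 131 FPKM in control embryos. The 2 were Foxa2, with 4.06 FPKM in mTBE and 1.37 FPKM in control embryos, and Pdgfra, with 6.41 FPKM in mTBE and 2.59 FPKM in control embryos. None of 12 oocyte markers was called, with a median of 0.07, and their sum was 6487 FPKM in mTBE and 4917 FPKM in control embryos.

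Of 15 cumulus and granulosa markers, 7 were measured, with 1 higher and 1 lower and sums of 82.9 FPKM in mTBE and 81.5 FPKM in control embryos. Foxl2 was the higher, with 7.20 FPKM in mTBE and 1.04 FPKM in control embryos, and Amhr2 the lower, with 2.12 FPKM in mTBE and 16.7 FPKM in control embryos. The markers Ptx3, Inhba and Hsd3b1 were listed at 0 in both libraries. Serpine2 alone held 57.7 FPKM of the sum in mTBE and 49.5 FPKM of that in control embryos. The part of these lists in the members' values was not tested.

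**Figure D4:**
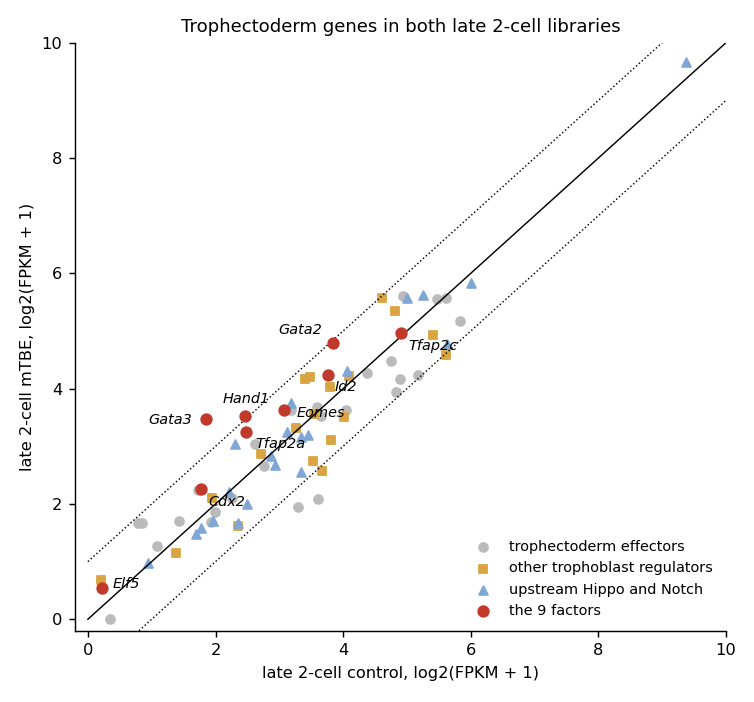
Level in late 2-cell mTBE (vertical) against late 2-cell control embryos (horizontal), in log2(FPKM + 1), for the 9 genes and 3 lists of trophectoderm genes, with the line of equality (solid) and differences of 1 (dotted). All 9 genes lie on or above the line, Tfap2c at a difference of 0.05, and 10 of 25 measured effectors lie above it, where 46.6% of all measured genes do.

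Late 2-cell embryos also held more RNA of part of these lists than PN5 zygotes. In control embryos against PN5, 14 of 23 effectors were higher and 0 lower, 12 of 18 other trophoblast regulators were higher and 2 lower, and 6 of 21 Hippo and Notch genes were higher and 0 lower, against the 30.5% and 17.0% of all genes given above. ICM markers were 9 of 13 higher and 0 lower, primitive endoderm markers 6 of 13 higher and 1 lower, cumulus markers 3 of 7 higher and 2 lower, and oocyte markers 0 of 12 higher and 5 lower. Of the paralogs, 3 of 3 Gata, 3 of 3 Id, 5 of 7 T-box, 1 of 4 Elf and 0 of 2 Tfap2 genes were higher, and 1 T-box, 1 Elf and 1 Tfap2 gene were lower. The E proteins had 0 of 2 called.

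The last question was where the 9 genes stood in the ICM preparation, which by its name should hold little trophectoderm. All 9 were at 1 FPKM or more in both ICM libraries, where 9638 and 9396 of 24029 symbols were. Id2 averaged 502 ± 87.0 FPKM, Gata3 136 ± 12.8 FPKM, Tfap2c 38.6 ± 3.57 FPKM, Cdx2 26.8 ± 6.62 FPKM, Gata2 23.2 ± 4.25 FPKM and Eomes 23.2 ± 2.13 FPKM (SD, n = 2). Below them were Elf5 at 8.66 ± 7.61 FPKM, Hand1 at 4.93 ± 1.79 FPKM and Tfap2a at 3.74 ± 1.11 FPKM (SD, n = 2). Id2 stood above Gata3, and Gata3 above Tfap2c, in both libraries without overlap. Cdx2, Gata2 and Eomes overlapped in range below Tfap2c, and so did Elf5, Hand1 and Tfap2a below them.

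Elf5 was the only member called between the ICM replicates, lower in replicate 2 by -1.81, 1 of 9 members against 2.79% of 9983 genes lower. None was higher, against 2.31% of genes. The other 8 genes differed between the replicates by between 1.14-fold and 1.69-fold. With the median ratio of the pair set to 0, 3.10% of all genes were higher and 1.86% lower, and with each library rescaled to a sum of 1000000, 3.25% were higher and 6.19% lower. Elf5 alone was called in each case. Among 1972 genes under 0.3 FPKM, 178 had the same ratio of replicate 2 to replicate 1, 2.11, as would be seen if 1 read were worth 2.11 times as much FPKM in replicate 2. The total depths are unknown.

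In ICM against late 2-cell control embryos, 5 of 9 members were higher and 0 lower, against 25.2% and 47.4% of 13515 genes. The differences were 5.25 for Gata3, 5.21 for Id2, 3.05 for Elf5, 3.03 for Cdx2 and 1.52 for Eomes on the log2(FPKM + 1) scale. Gata2 differed by 0.76, Tfap2c by 0.40, Hand1 by 0.11 and Tfap2a by -0.24. Elf5 differed by 1.88 without ICM replicate 1, which put it below Cdx2, at 2.76 without that replicate. The sign for Hand1 is not settled, since it was -0.24 without ICM replicate 2, and -0.25 or -0.37 when the libraries were rescaled to equal sums. The sign for Tfap2c was also negative, at -0.12, under the rescaling that left out small RNA and histone symbols. The median was 1.52 over the members and -0.86 over all genes. ICM and late 2-cell libraries differ in stage, in RNA selection and in normalization, which cannot be told apart.

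The label of the ICM libraries was set against markers. Nanog, the pluripotency factor, had 105 and 133 FPKM in the ICM libraries, and Pou5f1 had 280 and 163 FPKM. Of 16 ICM markers 15 reached 1 FPKM in each library, and Nodal was listed at 0 in both. The trophectoderm effectors were as complete, with 26 and 25 of 26 at 1 FPKM or more, none at 0 and sums of 3401 and 2944 FPKM in the ICM libraries, against 23 of 26 and 407 FPKM in late 2-cell control embryos. The sums of the ICM markers were 1256 and 1248 FPKM in the ICM libraries and 434 FPKM in late 2-cell control embryos.

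The keratin genes Krt18 and Krt8, intermediate filaments of simple epithelia, had 1116 and 991 FPKM and 437 and 335 FPKM in the ICM libraries. The claudin gene Cldn7 had 317 and 323 FPKM there, and Tspan8 had 383 and 293 FPKM. Against late 2-cell control embryos, 14 of 26 effectors were higher and 3 lower, with a median of 1.39, and 8 of 16 ICM markers were higher and 2 lower, with a median of 0.65. The 2 lower ICM markers were Nodal and Sox2, which had 5.25 and 2.85 FPKM in the ICM and 10.1 FPKM in control embryos. Sox2 and Esrrb are also on the list of other trophoblast regulators. The libraries labelled ICM held RNA of both kinds of markers, and the part of trophectoderm cells in the levels of the 9 genes was not tested.

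Of 14 primitive endoderm markers, 12 and 10 reached 1 FPKM in the ICM libraries, with sums of 189 and 192 FPKM. Dab2 alone held 119 and 130 FPKM of these sums, and it is 1 of 2 genes that the list shares with the trophectoderm effectors. Sox7 and Foxa2 were listed at 0 in replicate 1. Of 12 oocyte markers, 2 and 6 reached 1 FPKM, with sums of 120 and 154 FPKM, and 6 were listed at 0 in replicate 1, whereas 12 of 12 reached it in late 2-cell control embryos. Of 15 cumulus and granulosa markers 2 reached 1 FPKM in each ICM library, 11 and 9 were at 0, and the sums were 40.6 and 49.9 FPKM.

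**Figure D5:**
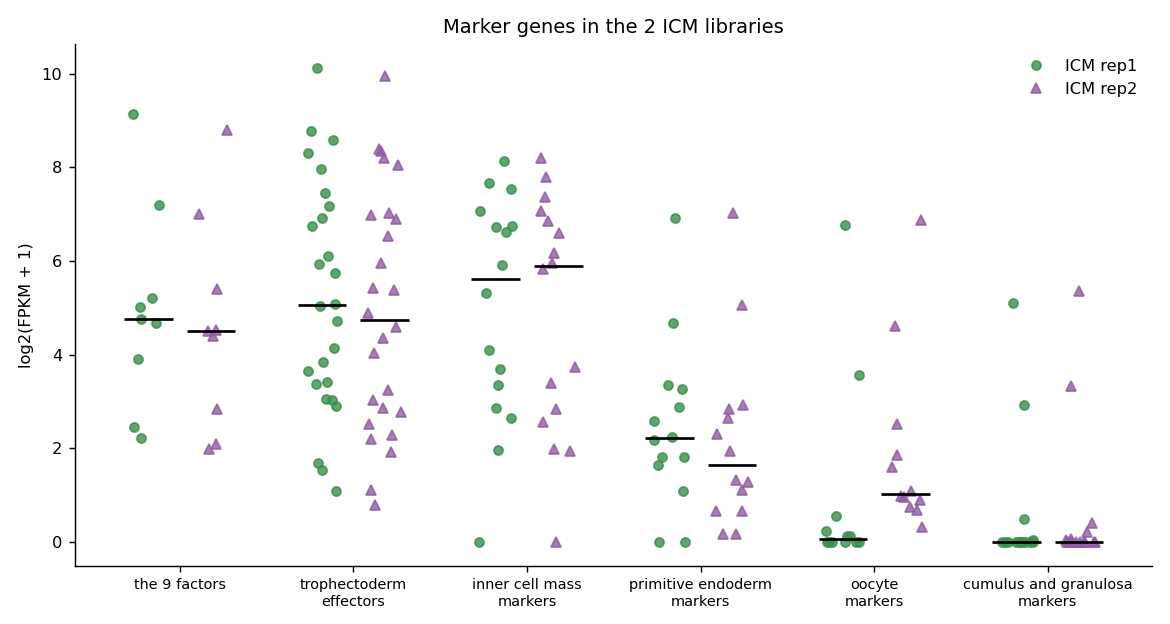
Level in log2(FPKM + 1) of each gene of 6 lists in ICM replicate 1 (circles) and ICM replicate 2 (triangles), with the median of each list (bar), where points are spread sideways at random for legibility. The effectors of the trophectoderm have 26 and 25 of 26 genes at 1 FPKM or more. They cover the range of the ICM markers apart from Nodal, which is at 0, as are most cumulus markers.

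Paralogs and pathway genes divided in the ICM. Against late 2-cell control embryos, 1 of 3 Gata, 1 of 8 T-box, 1 of 5 Elf, 1 of 3 Id and 0 of 2 Tfap2 paralogs were higher, and 2 Gata, 6 T-box, 3 Elf, 2 Id and 2 Tfap2 paralogs were lower. The higher genes included Elf3, an epithelial ETS factor, with 329 and 222 FPKM in the ICM and 43.1 FPKM in control embryos, and Id3, with 67.7 and 119 FPKM in the ICM and 4.49 FPKM in control embryos. Gata6, the primitive endoderm factor, had 24.5 and 32.1 FPKM in the ICM and 2.54 FPKM in control embryos. Cdx1, the only Cdx paralog measured, was higher at 3.21 and 3.75 FPKM in the ICM, against 0.139 FPKM in control embryos.

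The lower genes included the oocyte-rich Tfap2e, at 0.153 and 0.0645 FPKM in the ICM against 71.4 FPKM in control embryos, and Id4, listed at 0 and at 0.0848 FPKM in the ICM against 16.1 FPKM in control embryos. Of 20 Hippo and Notch genes 3 were higher and 7 lower, among them Tead4 with 27.5 and 22.7 FPKM in the ICM against 4.13 FPKM in control embryos, and Yap1 with 6.56 and 4.31 FPKM in the ICM against 663 FPKM in control embryos. Of 19 other trophoblast regulators 3 were higher and 9 lower. Klf5 had 113 and 183 FPKM in the ICM against 41.5 FPKM in control embryos, whereas Esx1 was at 0 and 0.177 FPKM in the ICM against 23.5 FPKM in control embryos. Both measured E proteins, Tcf3 and Tcf12, were lower.

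Genes with the most similar course were sought for each member that reached 10 FPKM in at least 1 library, by the mean absolute difference in log2(FPKM + 1) over the 7 libraries. For Cdx2 the nearest gene was Cyb5r1, at 0.16, followed by Alg5 and Plcd1. For Gata2 it was Gla, at 0.28, and for Gata3 it was Slc15a2, at 0.38, an oligopeptide transporter gene with 2.84 FPKM in mTBE and 1.97 FPKM in control embryos and 146 and 127 FPKM in the ICM libraries. Its ICM levels lay next to those of Gata3, while its mTBE level lay under the 10.2 FPKM of Gata3. For Eomes the nearest was Ppcs, at 0.19, for Elf5 Nxf7, at 0.18, for Id2 Prdx6, at 0.39, for Tfap2c Hnrnpl, at 0.20, and for Hand1 Npr1, at 0.23. None of the 3 nearest genes of any member was itself a member.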

How the data were processed

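RNA-seq values of 7 libraries were used, in 4 tables of FPKM per gene deposited by the authors. Per the submitters' processing notes, CASAVA 1.8, TopHat2 2.1.1, Cufflinks 2.1.1 and the mm9 build were used; no source at hand gives their order, strand handling or treatment of shared reads, so values of near-identical paralogs or antisense partners may share reads. Every column was matched to a sample (0 without one). Rows repeating a symbol were summed. Differences were taken as log2(FPKM + 1), with a pseudocount of 1 FPKM, among genes at 1 FPKM or more on at least 1 side, and called at 2-fold or more (Python 3.11.15, numpy 2.4.6, pandas 2.3.3). The script was checked on simulated data. With 1 library per group no test was run, and whether the 2 ICM libraries come from separate embryos is not stated. The 9 members and the 15 other lists were chosen with earlier results of these data known, and no list is independent support. Named were the members, family paralogs at 1 FPKM or more in some library, up to 4 genes of each list with the highest mean FPKM, and the 3 nearest genes of members reaching 10 FPKM. Tead4, Nanog, Sox2, Esrrb, Nodal, Esx1, Sp6, Lgals3, Foxa2, Pdgfra, Sox7, Foxl2, Ptx3, Inhba, Hsd3b1 and Ooep were singled out after their values were seen. Alternatives were pseudocounts, filters, scalings, size rules, the handling of repeated symbols and leaving out each ICM library. RefSeq promoter windows were matched by symbol.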

Additional observations from a re-analysis of the deposited data

Results flagged for a closer look

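Gata3 was flagged because its late 2-cell libraries lay on opposite sides of the PN5 library. It had 10.2 FPKM in mTBE embryos and 2.60 FPKM in control embryos, against 4.93 FPKM in PN5 zygotes, and mTBE embryos exceeded control embryos by 1.63 on the log2(FPKM + 1) scale. With 1 library on each side and the PN5 library shared, the difference was not tested.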

How the results depend on the processing

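No paired analysis was possible because no comparison rests on a test and 5 of the 7 libraries stand alone in their group. Of the counts and medians over the 9 genes, 139 recomputed values kept their side and direction or stayed within 1.5 times, and 14 did not. In control embryos against PN5, a filter of 5 FPKM left 3 genes higher, and a size rule of 1.5-fold gave 1 lower. In mTBE against control embryos, the 1.5-fold rule gave 4 higher and put the median of 0.66 past the rule. In early 2-cell embryos against MII oocytes, the number higher was 1 with a pseudocount of 0.1 FPKM, 1 with the 1.5-fold rule, 2 with the median ratio set to 0, and 5 with each library rescaled to a sum of 1000000, with or without small RNA and histone symbols. The number lower was 0 with the 5 FPKM filter and with the median ratio set to 0. The median was 1.22 after rescaling and 1.32 after rescaling without small RNA and histone symbols. Between the ICM libraries the 1.5-fold rule gave 1 higher. Tighter filters test fewer genes by construction, and looser rules call more. Rescaling to a sum of 1000000 raised the values while the pseudocount and filter stayed at 1, so more genes were measured. In early 2-cell embryos against MII oocytes 13937 genes were measured in place of 10675, and 8 members in place of 3. The part of this in the changed counts was not tested. Of the differences of single genes, 339 recomputed values kept their side, 21 passed the rule only under the alternative, 1 lost its call and 6 changed sign or moved without a call. No value called in both changed direction. The median log2 ratio that was set to 0 was taken over genes at 5 FPKM or more in both libraries. It was -0.13 in control against PN5, -0.10 in mTBE against control and -0.18 in mTBE against PN5. It was -0.57 in early 2-cell against MII and 0.13 in the ICM against control embryos. Levels under about 0.3 FPKM rest on an unknown number of reads.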

Other observations

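The remaining T-box and ETS paralogs followed courses of their own. Tbx19 had 10.4 FPKM in MII oocytes, 16.3 FPKM in PN5 zygotes, 8.75 FPKM in early 2-cell embryos, 37.3 FPKM in mTBE embryos and 29.5 FPKM in control embryos, and was listed at 0 in both ICM libraries. Tbx4 was highest in PN5 zygotes, at 70.1 FPKM, and had 26.9 FPKM in mTBE embryos, 23.3 FPKM in control embryos, and 1.13 and 0.0448 FPKM in the ICM libraries. Tbx20 was listed at 0 in MII oocytes and had 9.30 FPKM in mTBE embryos, 13.6 FPKM in control embryos, and 9.74 and 9.21 FPKM in the ICM libraries. Tbx2 had 5.83 FPKM in mTBE and 9.09 FPKM in control embryos. The low T-box genes T, at 1.66 FPKM in mTBE and 0.258 FPKM in control embryos, and Tbx6, at 1.22 FPKM in mTBE and a listed 0 in control embryos, were the other two called higher in mTBE embryos. Ehf, an epithelial ETS gene, had 93.1 FPKM in PN5 zygotes, 34.4 FPKM in mTBE embryos, 26.9 FPKM in control embryos, and 0.0280 FPKM and a listed 0 in the ICM libraries, the reverse of its relative Elf3. Elf1 dipped to 0.795 FPKM in early 2-cell embryos, with 11.8 FPKM in PN5 zygotes, 11.1 FPKM in mTBE embryos and 11.6 FPKM in control embryos.

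The most abundant genes of the other lists followed different courses. Among upstream Hippo genes, Nf2 had 56.0 FPKM in mTBE embryos, 63.1 FPKM in control embryos, and 12.9 and 6.81 FPKM in the ICM libraries, and Stk3 had 46.7 FPKM in mTBE embryos, 31.1 FPKM in control embryos, and 10.3 and 6.27 FPKM in the ICM libraries. Mob1a kept 26.5 FPKM in mTBE embryos, 48.6 FPKM in control embryos, and 36.0 and 26.6 FPKM in the ICM libraries. Satb1, a chromatin organizer of trophoblast stem cells, had 49.4 FPKM in PN5 zygotes, 39.7 FPKM in mTBE embryos, 27.1 FPKM in control embryos, and 11.4 and 10.2 FPKM in the ICM libraries. Spp1 had 202 and 295 FPKM and Upp1 had 184 and 221 FPKM in the ICM libraries. The egg gene Ooep was the highest oocyte marker in the ICM libraries, at 108 and 116 FPKM, and accounts for most of the summed level of that list there, whereas Btg4 was listed at 0 and at 0.668 FPKM. Serpine2 had 33.5 and 40.1 FPKM there and held most of the cumulus sum.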
